A study of Mus musculus with 6 samples.

Results

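Transcripts of 10 leukocyte adhesion genes were examined in transferred T cells with and without CTLA-4. They encode 7 integrin chains (Itga4, Itgb7, Itgb1, Itgal, Itgb2, Itgav and Itgb3), the integrin ligand ICAM-1 (Icam1), the hyaluronan receptor CD44 (Cd44) and the selectin ligand PSGL-1 (Selplg). The genes were taken by name, with earlier results of these data known. All 28 probe sets that the array annotation assigned to exactly 1 of them were read, out of 45101 probe sets and 18194 named genes. Of the 28 probe sets, 23 lay above a floor of 35.4 in intensity and were tested, so that each of the 10 genes had at least 1 tested probe set. The other 5 reached at most 37.9 on any array.

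The cells were 5C.C7 T cells, whose transgenic receptor recognises a peptide of moth cytochrome c (MCC). All donors lacked RAG2 and carried CD45.1, and they were either wild type or also deficient for CTLA-4 (CTLA-4 KO, written KO for brevity). Cells of both genotypes were moved into B10.A recipients, which received MCC peptide with LPS, and on day 4 the transferred cells were sorted for RNA. The study has 3 Affymetrix arrays per genotype, numbered 1 to 3 as biological replicates. The labels do not say whether animals were pooled, nor the ages of donors or recipients.

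Integrins are heterodimers of an alpha and a beta chain that hold leukocytes to other cells and to matrix, and signals from the antigen receptor and chemokine receptors switch them from a bent, low-affinity shape to an extended one. On T cells alpha4beta1 binds VCAM-1 and fibronectin, alpha4beta7 binds MAdCAM-1 of gut vessels, and LFA-1, made of Itgal and Itgb2, binds ICAM-1 on antigen-presenting cells, endothelium and other T cells. CD44 and PSGL-1 act earlier in the contact with vessels, as receptors for hyaluronan and for selectins, and CD44 is a common marker of T cells that have met antigen.

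Icam1 was the one member that passed the test without a replicate block. Its transcript doubled in the KO cells, from an intensity of 752 ± 39.7 to 1509 ± 47.5 (mean ± SD, n = 3 arrays). With a replicate block, a model term that sets same-numbered arrays against each other, the beta chain gene Itgb7 also passed as higher and the alpha chain gene Itga4 as lower, at 133% and 77.9% of the wild-type level. Both chains of LFA-1, Itgb1, the alphav chain, Cd44 and Selplg did not pass in either model, and each of these had a 95% interval within 1.5-fold in either direction at its brightest probe set. Itgb3 did not pass either, and its interval was wider.

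Without the block 1 of 23 tested member probe sets passed as higher and 0 as lower, where 0.785% of all tested probe sets were higher and 0.47% lower, or 1.25% in either direction. With the block 2 passed as higher and 1 as lower, where 3.86% and 4.8% of all did, 8.66% in all. Genotypes were fully separate in their values for 2 member probe sets that were higher and 2 that were lower in the KO, where 9.46% and 11.5% of all tested probe sets were, or 21% in all. Since the members were chosen with earlier results of these data known, their counts are not an unbiased sample of the array.

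The 250 bases before the RefSeq start site are shown for the 3 genes that passed in either model, of which Itgb7 and Itga4 needed the block. Icam1 is also a textbook target of NF-kappaB. Of the 10 members, 6 had an entry among the RefSeq promoters of GRCm38.p6. Capitals mark matches, on either strand, to a kappaB motif (GGNNNTTCC) and to the RUNX (TGTGGT), Sp1 (GGGCGG) and AP-1 (TGANTCA) motifs. The motifs were chosen with the sequences in view. The windows are chr9:21015690-21015939 on the plus strand for Icam1, chr15:102231936-102232185 on the minus strand for Itgb7 and chr2:79255176-79255425 on the plus strand for Itga4, each written 5′ to 3′.
Icam1: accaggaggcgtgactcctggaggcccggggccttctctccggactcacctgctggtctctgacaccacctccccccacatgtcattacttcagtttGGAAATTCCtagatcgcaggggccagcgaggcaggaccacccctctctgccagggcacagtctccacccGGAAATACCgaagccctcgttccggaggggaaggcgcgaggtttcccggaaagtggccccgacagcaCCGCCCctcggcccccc
Itgb7: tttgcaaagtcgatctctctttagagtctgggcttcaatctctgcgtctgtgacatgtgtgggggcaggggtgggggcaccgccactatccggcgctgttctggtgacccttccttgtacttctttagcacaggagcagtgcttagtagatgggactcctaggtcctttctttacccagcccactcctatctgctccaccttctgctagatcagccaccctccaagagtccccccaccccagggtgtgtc
Itga4: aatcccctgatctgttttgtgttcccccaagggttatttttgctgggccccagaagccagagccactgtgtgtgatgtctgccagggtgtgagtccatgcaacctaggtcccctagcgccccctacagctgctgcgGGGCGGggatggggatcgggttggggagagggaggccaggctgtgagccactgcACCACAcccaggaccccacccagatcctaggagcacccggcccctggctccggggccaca

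The Icam1 window held the kappaB motif at 2 places. One, GGAAATTCC, matched on both strands 153 to 145 bases before the start, and the other, GGAAATACC, matched on the minus strand at 84 to 76 bases. An Sp1 match lay 17 to 12 bases before the start. Over all 32851 promoters of this length, 15.7% held a kappaB match, 32.7% an Sp1 match, 14% a RUNX match and 6.75% an AP-1 match. The Itga4 window held 1 Sp1 and 1 RUNX match, and in the Itgb7 window none of the 4 motifs was found. Among the members that did not pass, the Itgb1 window also held a kappaB match, 164 to 156 bases before the start, and an Sp1 match at 151 to 146 bases, and none of the 4 was found in those of Itgav and Cd44. No match overlapped one of another motif. These matches describe the letters and do not show that a factor was bound.

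The ligand gene Icam1 had intensities of 791, 754 and 712 in wild type replicates 1, 2 and 3, and of 1543, 1455 and 1530 in KO replicates 1, 2 and 3. Every KO array lay above every wild-type array, and the difference between the group means was far larger than the SD within either. On the log2 scale the KO was higher by 0.99 ± 0.11 (SE, limma adjusted p = 0.00422), with a 95% interval of 1.67-fold to 2.36-fold. The ratio of the mean intensities was 2.01. In the replicate pairs the log2 difference was 0.95, 0.93 and 1.09. Among 27022 tested probe sets Icam1 ranked 22 by p and 184 by the size of its increase. Its 1 probe set (1424067_at) is the sole reading of this gene here. The two-sided exact permutation test gave p = 0.1 (n = 3 arrays per group), the smallest that its 20 arrangements allow.

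The increase of Icam1 kept its size in every alternative run, with log2 differences between 0.95 and 1.07, and it passed when any of the 6 arrays was left out (adjusted p 0.00854 to 0.0344). It did not pass without the intensity trend in the variance (adjusted p = 0.0587), in the arrays of male donors alone, which are replicates 1 and 3 (0.0839), or when the 5′ to 3′ signal ratio of Actb was entered in the model (0.0626). That ratio, a sign of RNA integrity, was 0.418, 0.41 and 0.584 in the wild-type arrays and 0.567, 0.691 and 0.544 in the KO arrays, and with it in the model the log2 difference was 1.07. The same ratio of Gapdh was lower, at 0.103, 0.0955 and 0.25 in wild type and 0.109, 0.205 and 0.178 in the KO. With the Gapdh ratio in the model Icam1 passed, at a log2 difference of 1.01 (limma adjusted p = 0.00445).

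**Figure D1:**
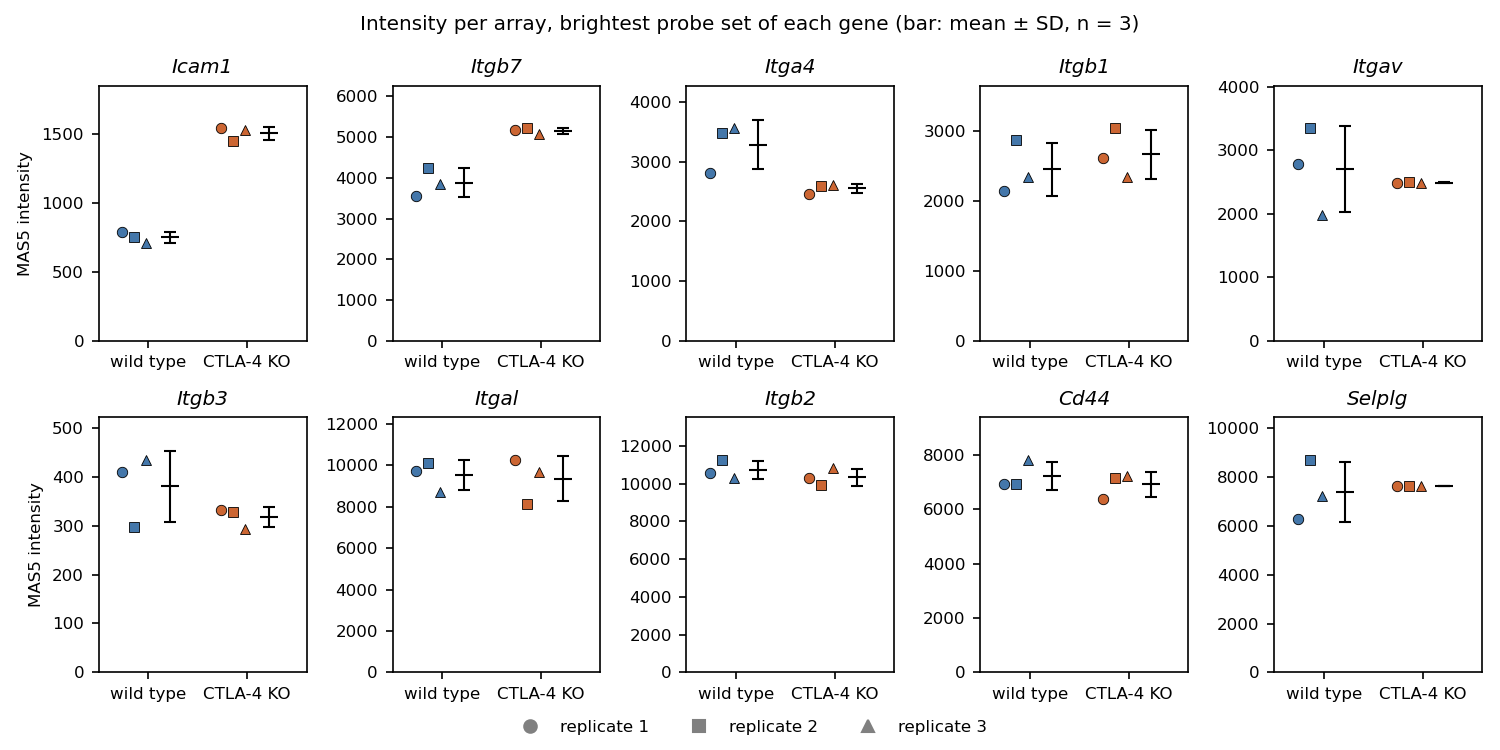
MAS5 intensity on the vertical axes, from 0, for the brightest probe set of each of the 10 genes. Each symbol is 1 array, its shape gives the replicate number, and bars are mean ± SD of 3 arrays. Icam1 and Itgb7 lie higher and Itga4 lies lower in all KO arrays than in all wild-type arrays, and the groups overlap for the other 7 genes.

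Since the arrays read bulk RNA, more transcript per cell and more cells that express a gene cannot be told apart. Icam1 is also expressed by B cells, myeloid cells and endothelium, so markers of other cells were read on the same arrays. Of 9 listed B cell markers 2 lay above the floor, and their summed intensity lay between 137 and 229 in wild type and between 107 and 168 in the KO. The sum of 9 myeloid markers above the floor spanned 559 to 626 and 513 to 740, and that of 3 endothelial and stromal markers 197 to 274 and 147 to 207. The sums of each of these lists overlapped between the genotypes, and none of their genes passed without the block. With it 1 of them passed, the endothelial receptor gene Kdr, as lower. Kdr and Col1a2, 2 of the 3 endothelial and stromal markers, were lower in the KO without overlap. Kdr had 65.6 ± 8.4 in wild type and 22.6 ± 9.37 in the KO, and Col1a2 had 98.9 ± 15.6 and 74.4 ± 4.54. Of the 9 myeloid markers 2 did not overlap between the genotypes and passed in neither model, where 21% of all tested probe sets did not overlap. Cd68 had 83.1 ± 22.5 in wild type against 132 ± 6.2 in the KO (limma adjusted p = 0.244), and Itgax had 70.7 ± 4.25 against 53.6 ± 7.44 (0.55). What part these levels have in the Icam1 value was not tested. The Actb ratio was entered in the model as given above, and its part in the Icam1 value was not tested otherwise. Cd79a and Pax5 of B cells, Cd14 and Itgam of myeloid cells, and Cdh5, Tek and Emcn of endothelium lay under the floor. The 11 T cell markers measured summed to 80334 to 89616 in wild type and 82645 to 83797 in the KO, and Cd4 had 5148 ± 241 and 5473 ± 461. None of the 11 passed without the block. With it the receptor chain gene Cd3g (log2 difference −0.35, limma adjusted p = 0.029) and the costimulatory receptor gene Cd28 (−0.34, 0.0299) passed as lower, and the adaptor gene Lat (0.32, 0.0437) as higher. Ctla4 had 5332, 4787 and 4587 in wild type and 812, 791 and 784 in the KO.

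The median log2 difference of the 23 was −0.062, beside −0.041 over all tested probe sets. The genes lie on 8 chromosomes, with Itga4, Itgav and Cd44 on chromosome 2, and none shares a chromosome with Ctla4.

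Itga4 encodes the alpha chain shared by alpha4beta1 and alpha4beta7. Its brightest probe set (1436037_at) read 2807, 3481 and 3554 in wild type replicates 1 to 3 and 2466, 2596 and 2603 in the KO replicates. The KO arrays all lay below the wild-type arrays, with replicate 1 of wild type the nearest to them. The difference on the log2 scale was −0.35 ± 0.11 (SE, limma adjusted p = 0.168 without a block and 0.0333 with it), with a 95% interval of −0.60 to −0.10. In pairs 1, 2 and 3 it was −0.19, −0.42 and −0.45.

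Another 4 probe sets of Itga4 were dimmer and did not settle the size of this difference. One (1450155_at) read 111, 99.6 and 97.5 in wild type and 47.1, 55.9 and 67.7 in the KO, without overlap, a log2 difference of −0.71 (adjusted p = 0.159, and 0.0873 with the block). The remaining 3 overlapped between the genotypes and had log2 differences of −0.34, −0.16 and 0.073. With all probe sets of the gene averaged, the log2 difference of Itga4 was −0.30 (limma adjusted p = 0.292).

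Itgb7, the beta chain of the gut-homing integrin alpha4beta7 and of alphaEbeta7, had a difference of the opposite sign to that of its alpha4 partner. It read 3546, 4246 and 3849 in the wild-type replicates and 5180, 5212 and 5068 in the KO replicates. All KO arrays were above all wild-type arrays, and they were closer to each other (SD 75.5) than the wild-type arrays (SD 351). The difference on the log2 scale was 0.41 ± 0.097 (SE, limma adjusted p = 0.0711 without a block and 0.0138 with it), or 1.33-fold with a 95% interval of 1.15 to 1.54. It was 0.54, 0.29 and 0.40 in pairs 1, 2 and 3. Itgb7 also passed when each gene was tested by the average of its probe sets (adjusted p = 0.0341), where fewer values were tested and its own value was the same. Neither Itgb7 nor Itga4 passed without the block when any array was left out (adjusted p 0.0738 to 0.264 and 0.0914 to 0.40). Itgae, the other partner of beta7, named here after its values were seen, was dim at 63.2 ± 8.06 and 94.7 ± 44 (adjusted p = 0.613).

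Itgb1 encodes the common beta1 chain, which pairs with alpha4 and many other alpha chains. Its brightest probe set read 2143, 2881 and 2353 in wild type and 2625, 3043 and 2345 in the KO, so the groups overlapped, and replicate 2 was highest in both. The log2 difference was 0.12 ± 0.14 (limma adjusted p = 0.721), with an interval of 0.881-fold to 1.34-fold. A second bright probe set had a log2 difference of 0.039, another 2 had −0.11 and 0.18, and 2 were under the floor.

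The chains of an integrin compete for partners inside the cell, so the log2 ratio of 2 chains within each array was compared between the genotypes for 6 pairs. Such a ratio shows unequal change and does not give the amounts of the chains, because probe sets differ in how brightly they bind. The wild-type log2 ratios of Itga4 to Itgb7 were −0.34, −0.29 and −0.11, against −1.07, −1.0 and −0.96 in the KO. This was the most marked shift of the 6 pairs, a mean change of −0.76, with −0.73, −0.72 and −0.84 in the replicate pairs. For Itga4 to Itgb1 the wild-type ratios were 0.39, 0.27 and 0.59, against −0.089, −0.23 and 0.15 in the KO, a change of −0.47. Itgb7 to Itgb1, the alternative partners of alpha4, stood at 0.72, 0.56 and 0.71 in wild type and 0.98, 0.77 and 1.11 in the KO, a change of 0.29. In these 3 pairs the genotypes did not overlap, and the two-sided exact permutation test gave p = 0.1 for each, the smallest possible, and 0.2 after Benjamini-Hochberg adjustment over the 6 pairs (n = 3 arrays per group). The design cannot reach 0.05 in this test. These 3 ratios combine the same 3 genes, so they are not independent of each other. The change of −0.76 restates the differences of Itga4 and Itgb7 given above. With Itga4 lower and Itgb7 higher in every KO array, the lack of overlap and the p of this pair were fixed in advance and add no support. How often ratios of other gene pairs separate the genotypes was not computed.

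**Figure D2:**
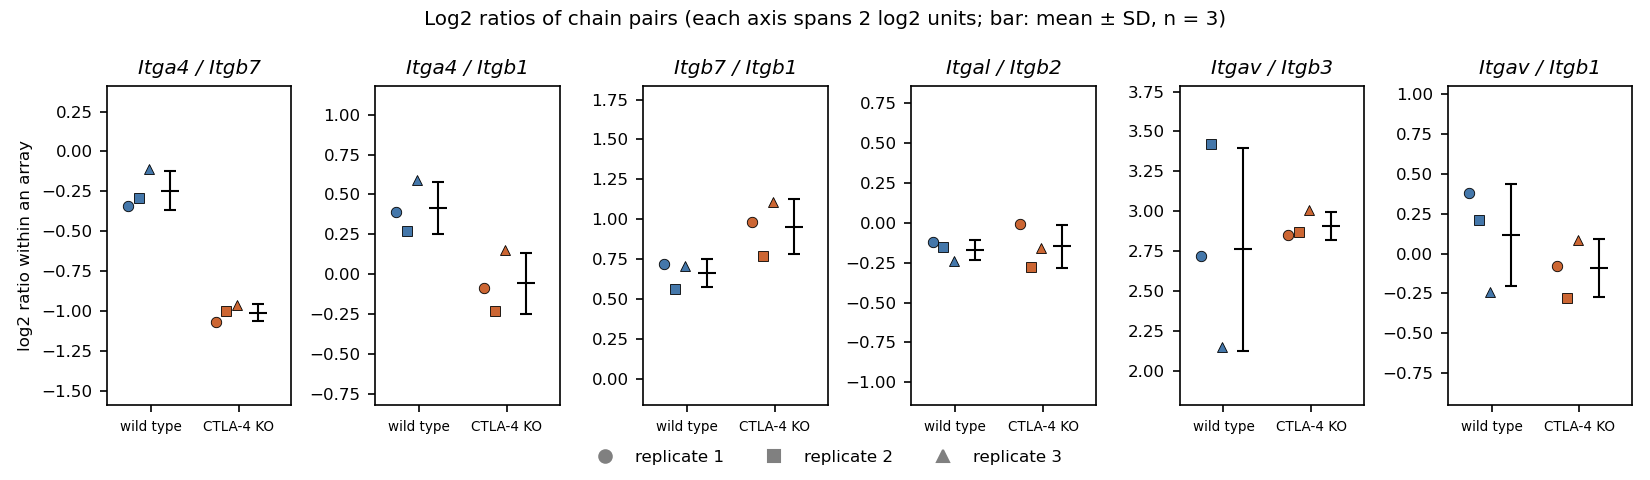
Log2 ratio of 2 integrin chain transcripts within an array, for 6 pairs, with each vertical axis spanning 2 log2 units. Each symbol is 1 array, its shape gives the replicate number, and bars are mean ± SD of 3 arrays. Itga4 to Itgb7 has a mean of −0.25 in wild type against −1.01 in the KO with no overlap, and Itgal to Itgb2 overlaps.

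LFA-1 is the integrin through which T cells bind ICAM-1. Itgal, its alphaL chain, read 9713, 10113 and 8719 in wild type and 10253, 8142 and 9663 in the KO. Itgb2, the beta2 chain of all leukocyte integrins of the CD11 and CD18 type, read 10588, 11252 and 10299 in wild type and 10298, 9906 and 10811 in the KO. The groups overlapped for both chains, with log2 differences of −0.029 ± 0.11 and −0.051 ± 0.082 (SE, limma adjusted p = 0.925 and 0.809) that both turned positive under median centring of the arrays. Their 95% intervals ran from 0.833-fold to 1.15-fold for Itgal and from 0.851-fold to 1.09-fold for Itgb2, so a doubling like that of their ligand gene Icam1 lies outside both. The second probe set of Itgal had a log2 difference of −0.18 (adjusted p = 0.606). The log2 ratio of Itgal to Itgb2 was −0.17 ± 0.06 in wild type and −0.15 ± 0.14 in the KO (mean ± SD, two-sided exact permutation test, p = 1, n = 3 arrays).

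The alphav chain, which with beta1 or beta3 binds vitronectin, fibronectin and other ligands with an RGD motif, was spread widely among wild-type arrays. Itgav read 2785, 3343 and 1988 there and 2489, 2496 and 2482 in the KO, so that all KO arrays lay within the wild-type range. The log2 difference was −0.087 ± 0.16 (limma adjusted p = 0.842, interval 0.733-fold to 1.21-fold). It turned positive once the Actb ratio was entered, in the arrays of male donors and without wild type replicate 2. Of its other probe sets 3 were tested and were dim, at means of 59.7, 53.6 and 55.8 in wild type, with log2 differences of −0.074, 0.076 and −0.66 (adjusted p 0.39 to 0.924), and 1 was under the floor.

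Itgb3, the beta3 chain known best from platelets, read 409, 298 and 434 in wild type and 332, 327 and 293 in the KO. The groups overlapped through wild type replicate 2, and the log2 difference was −0.23 ± 0.17 (limma adjusted p = 0.565, interval 0.65-fold to 1.11-fold). Its other probe set was under the floor, at 8 in both genotypes. Of 8 listed platelet markers 3 were above the floor, with a sum between 199 and 378 in wild type and between 179 and 302 in the KO, while Pf4, Ppbp and Gp9 were under it.

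Cd44 was bright in both genotypes. Its brightest probe set read 6934, 6940 and 7812 in wild type and 6392, 7165 and 7210 in the KO, a log2 difference of −0.062 ± 0.094 (limma adjusted p = 0.794, interval 0.83-fold to 1.11-fold). Another 2 probe sets above the floor had log2 differences of −0.15 and −0.02, and the fourth was at 8.92 or less on all arrays. The groups overlapped at each of these 3 tested probe sets. Probe sets of this gene can read different splice forms, and which forms they read was not analysed here.

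Selplg, which encodes PSGL-1, read 6278, 8709 and 7238 in wild type and 7656, 7659 and 7638 in the KO. The KO arrays lay inside the wild-type range, and the log2 difference was 0.059 ± 0.12 (limma adjusted p = 0.848, interval 0.873-fold to 1.24-fold). It was negative without wild type replicate 1 and after quantile normalization.

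**Figure D3:**
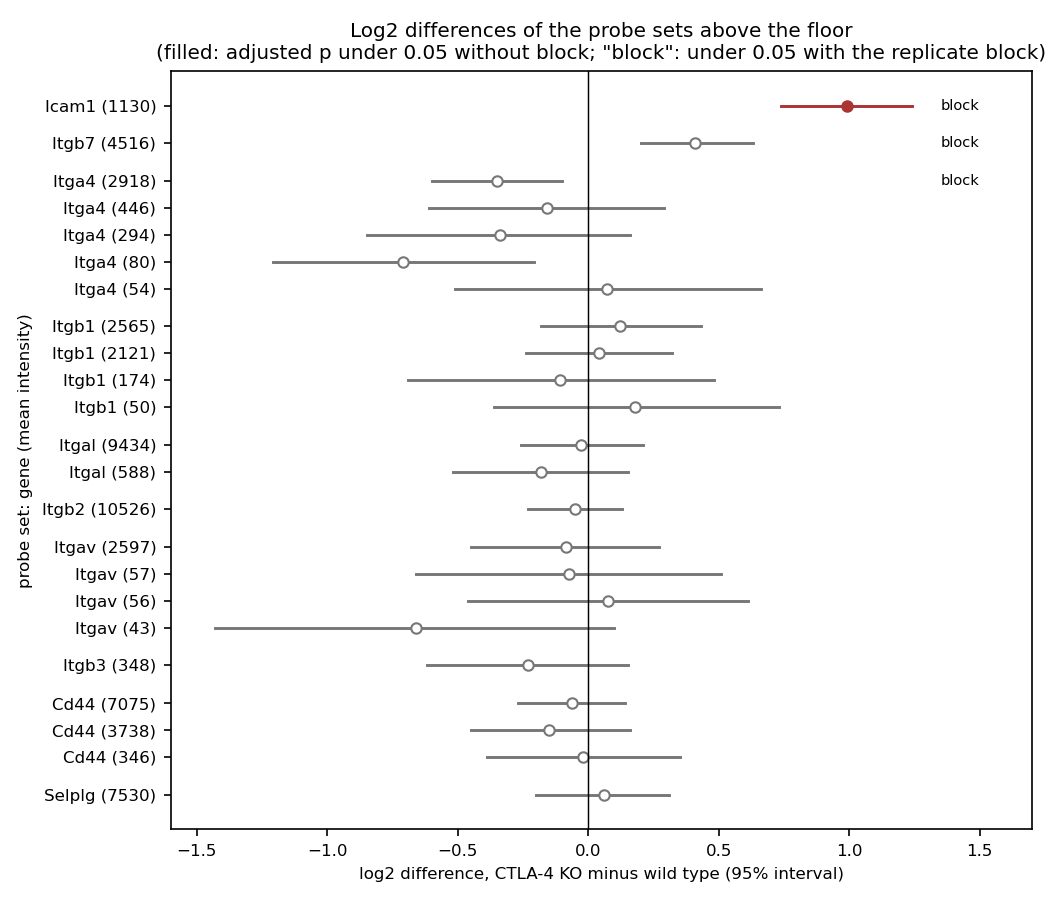
Log2 difference, CTLA-4 KO minus wild type, on the horizontal axis for each of the 23 tested probe sets, which are labelled by gene and mean intensity on the vertical axis. Points are estimates, lines are 95% intervals, a filled point passes without a block, and the word block marks those that pass with it. Icam1 stands at 0.99, Itgb7 at 0.41 and the brightest Itga4 probe set at −0.35, and dim probe sets have the wide intervals.

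The SE of the brightest probe sets lay between 0.082 for Itgb2 and 0.17 for Itgb3, with a median of 0.11. Over the 23 tested member probe sets the median SE was 0.16, beside 0.19 over all tested probe sets. Several kept probe sets were available for 5 genes, and for 3 of these, Itga4, Itgb1 and Itgav, they had differences of both signs. The sign was the same in all 3 replicate pairs for Icam1, Itgb7 and Itga4 and for no other brightest probe set. For these 3 that follows from the lack of overlap between the genotypes, so it adds no support. The share over all tested probe sets was not computed.

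Other genes of leukocyte adhesion were then read in 6 lists with 114 genes, of which 85 were tested. Of these 85, 1 passed without a block (1.18%), where 1.69% of all 11990 tested genes did, and 7 passed with it (8.24%), where 8.96% did. The median log2 difference of the 85 genes was 0.084, beside 0.0015 over all genes. Neither share stood above that of the array as a whole, and the lists too were chosen with earlier results of these data known.

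The gene that passed without the block was Rapgef6, an exchange factor that activates Rap GTPases, the switches that raise integrin affinity. Its brightest probe set fell from 10078, 9488 and 9697 in wild type to 6952, 7403 and 6611 in the KO, and no KO array reached a wild-type one. This drop was −0.48 ± 0.085 on the log2 scale (SE, limma adjusted p = 0.0268), with −0.53, −0.36 and −0.55 in the replicate pairs. All 5 tested probe sets of the gene had negative differences, between −0.84 and −0.48, of which 2 passed without the block and 5 with it. The call was lost whichever array was left out (adjusted p 0.0565 to 0.0885), and also without the intensity trend (0.181), in male arrays (0.16), once the Actb ratio was entered (0.196), with no dimness filter (0.0761) and after centring arrays on their medians (0.0621), with the log2 difference between −0.54 and −0.42 in all of these.

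Of the 21 tested genes of integrin activation, which include talin, kindlin and the Rap pathway, none passed as higher without the block and 15 had positive differences. Their median was 0.047, beside 0.0015 over all genes, and the 15 include Rap1a at 0.0037, Rap1b at 0.0035 and Cyth1 at 0.0078. The share of positive differences over all genes was not computed, for this list or those below. Rasgrp2, which encodes another Rap exchange factor, CalDAG-GEFI, read 441 ± 22.3 in wild type and 612 ± 105 in the KO, and passed with the block alone (limma adjusted p = 0.0443, and 0.197 without it). All 4 of its probe sets had positive differences, from 0.11 to 0.45. The 2 exchange factors thus had differences of opposite sign.

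Among 17 linkers and signalling proteins that couple integrins to actin, 12 had positive differences, with a median of 0.21, beside 0.0015 over all genes. None of the 17 passed without the block. Flna, which encodes filamin A, an actin crosslinker that binds integrin beta tails, read 8106, 7899 and 5352 in wild type and 12252, 9783 and 9730 in the KO (log2 difference 0.59, limma adjusted p = 0.106 and 0.00517 with the block). Vasp, an actin polymerisation factor, had 4101 ± 551 and 5258 ± 411 (0.163 and 0.0288 with the block). These 2 genes passed with the block alone. Actn4 and Zyx, which encode alpha-actinin-4 and zyxin, had log2 differences of 0.23 and 0.31 (adjusted p = 0.225 and 0.228), and the second probe set of Zyx had −0.41.

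Of 11 other integrin subunits above the floor none passed without the block, 8 had negative differences and the median was −0.30, beside 0.0015 over all genes. Itga6 and Itgb5 were bright, and the rest were dim, with wild-type means from 63.2 for Itgae to 149 for Itga3, so the signs carry little weight. Itga7, a laminin-binding chain known from muscle, read 52.7, 120 and 110 in wild type and 169, 268 and 271 in the KO, dim values without overlap (log2 difference 1.22, limma adjusted p = 0.0738 and 0.00225 with the block). Itga6, the alpha6 chain of laminin receptors, had 2775 ± 370 and 2228 ± 99.8 (adjusted p = 0.237), Itga9 had 111 ± 12.3 and 61.1 ± 17.4 (0.173), and Itga2 had 66.2 ± 20.9 and 39.7 ± 29.4 (0.437). Another 6 subunits, Itgam and Itga5 among them, were under the floor.

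Of the ligands 8 were tested. Icam2, a second ligand of LFA-1, read 1617, 1914 and 1365 in wild type and 2654, 2224 and 2104 in the KO, with no overlap (log2 difference 0.51, limma adjusted p = 0.117 and 0.0124 with the block). Its direction was that of Icam1. Icam5 was dim at 50.1 ± 23.8 and 96.7 ± 34.1 (adjusted p = 0.291), Icam4 had 120 ± 22.7 and 94.1 ± 5 (0.555), and Mfge8, a ligand of alphav integrins, had 516 ± 59 and 613 ± 60.1 (0.462). The vascular ligands Selp and Sele and the 3 hyaluronan synthases were under the floor.

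For PSGL-1 to bind selectins its sugars and tyrosines must be modified, and 13 genes of selectin ligand synthesis were tested. Whether each of these enzymes acts on PSGL-1 was not examined. Chst2, a sulfotransferase of carbohydrate chains, had 329 ± 112 and 218 ± 67.1 with overlapping groups and passed with the block alone (limma adjusted p = 0.354 and 0.0411 with it). The tyrosine sulfotransferase gene Tpst2 had 729 ± 62.9 and 844 ± 93 (adjusted p = 0.507), the core 2 branching enzyme gene Gcnt1 had 550 ± 50.8 and 648 ± 99.7 (0.527), and Fut4 was dim at 32.2 ± 17.1 and 46.5 ± 7.9 (0.573). None of the 15 tested partners of CD44 and PSGL-1 and other T cell adhesion molecules passed in either model. The smallest p among these belonged to Nf2, which encodes the CD44-binding protein merlin, with 729 ± 81.9 and 923 ± 93.1 (adjusted p = 0.271). Adam17, a protease that sheds adhesion molecules, had 2279 ± 114 and 2592 ± 69.1 (0.394), Ezr, the CD44 and PSGL-1 linker ezrin, had 5897 ± 480 and 6625 ± 275 (0.421), and Pecam1 had 268 ± 19.2 and 214 ± 27.8 (0.427).

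**Figure D4:**
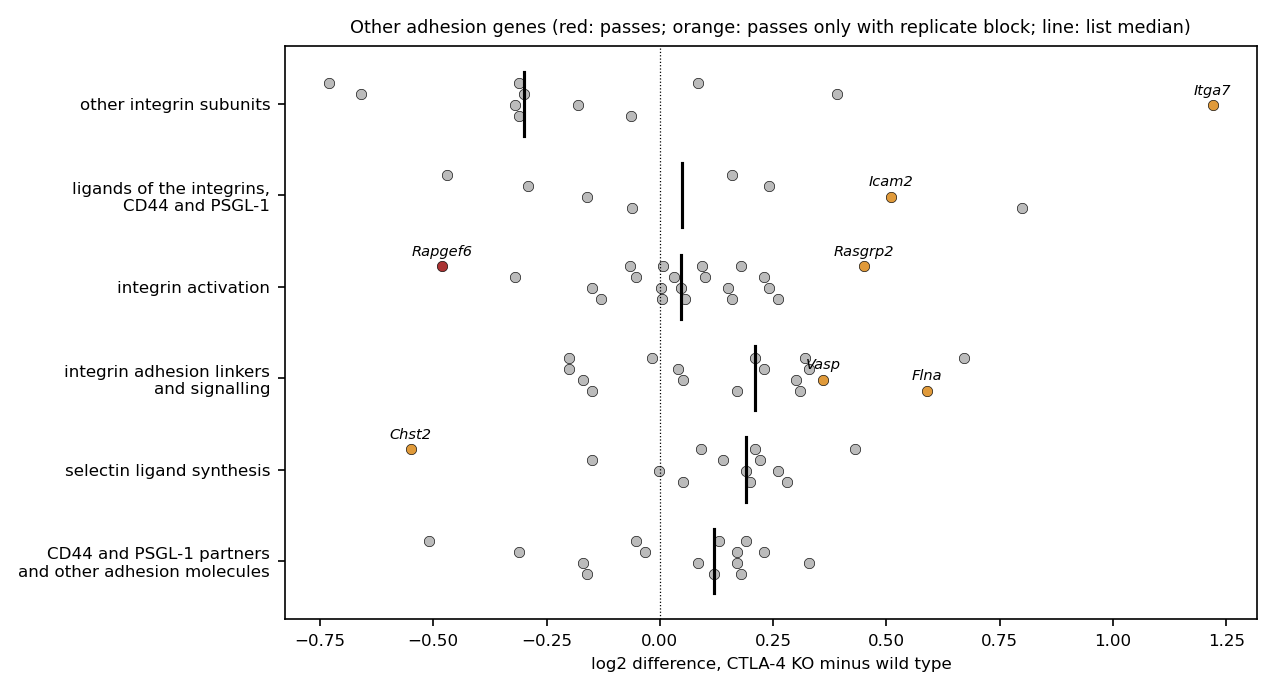
Log2 difference, CTLA-4 KO minus wild type, on the horizontal axis for the 85 tested genes of 6 adhesion lists on the vertical axis. Each point is a gene at its brightest probe set, red passes without a block, orange passes with the replicate block alone, grey passes in neither, and black lines are list medians. Rapgef6 at −0.48 is the single red point, and Itga7, Icam2, Rasgrp2, Vasp, Flna and Chst2 are orange.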

How the data were processed

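Total RNA of sorted T cells, 2 µg per array, was read on 6 Affymetrix arrays after Trizol extraction and biotin labelling, per the labels' protocols. Deposited by the authors was 1 linear intensity per probe set and array, and the submitters' processing notes name MAS5 and Partek without versions. Each array had a trimmed mean of 500.003, so background correction, probe summary and scaling were done before deposit. Other steps are not given in the sources used here.

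Values were turned into log2(intensity + 16) from the deposited intensity. The 64 AFFX controls were left out, and 27022 probe sets with a mean log2 value at or above the 40th percentile were kept, a floor of 35.4 in intensity. limma (3.58.1, R 4.3.3, eBayes with intensity trend, 4 residual degrees of freedom) was fitted over all of them with Benjamini-Hochberg adjustment and a threshold of 0.05, and 95% intervals come from its moderated error. The fit without a block was tested on simulated data with independent noise on each array, which does not test the fit with the block. The titles give both genotypes the same replicate numbers, and same-numbered arrays deviated together from their group means (correlations 0.371, 0.24 and 0.254), so that arrays were treated as pairs in the replicate block. Donor sex is not in the labels. Xist read 14608 and 12599 in replicate 2 of wild type and CTLA-4 KO and at most 107 on the other arrays, which are called male. Separate animals are not stated, and p-values measure the spread between these arrays, which may be partly technical.

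Gene names came from the annotation of the array, with 1 symbol for 34958 probe sets, several for 932 and none for 9211, and 34754 matched RefSeq (GRCm38.p6) by gene ID. The brightest probe set stood for a gene. Named were all members and, from each list, genes that passed in either model, or up to 4 with the smallest p where none passed without the block. The members and lists were chosen with earlier results of these data known. Of 114 listed genes, some, Itga11, Itgad, Spp1, Fermt1, Ptk2 and Nedd9 among them, were not analysed here. Alternatives were the pseudocount, filter, normalization, trend, array weights, block, RNA ratios, donor sex, probe set choice and leaving out each array.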

Additional observations from a re-analysis of the deposited data

How the results depend on the processing

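Over 20 alternatives Icam1 passed in 17, though with its 1 probe set the averaging or choice of probe sets left its values unchanged. Its log2 difference was 0.99 without the intensity trend, 1.02 in male arrays and 1.07 once the Actb ratio was entered, where it did not pass. The number of members that passed was 0 in these 3 settings and 3 with the replicate block, where Itgb7 (0.41) and Itga4 (−0.35) were added. The block changed no other member's call. Itgb7 (0.41) also passed when a gene's probe sets were averaged, where fewer values were tested. Of the listed adhesion genes 7 passed with the replicate block, 3 once the Gapdh ratio was entered, 2 with array weights and 2 when probe sets of a gene were averaged. The number was 0 in male arrays, without the intensity trend, once the Actb ratio was entered, under median centring, with no dimness filter and in each fit without 1 array (0 to 0). Over all probe sets, 339 calls became 2341 with the block, 521 with array weights, 111 with no filter, 46 in male arrays, 22 with the Actb ratio, 20 without the trend and 62 to 217 without 1 array.

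Differences near 0 changed sign without passing in any setting. Itgal was 0.029 under median centring, 0.16 and 0.014 with the Actb and Gapdh ratios, 0.11 in male arrays and −0.098 to 0.068 without 1 array. Itgb2 was 0.0068 under median centring, 0.027 with the Actb ratio and 0.015 in male arrays. Itgav was 0.24 with the Actb ratio, 0.079 in male arrays and −0.29 to 0.081 without 1 array. Selplg was −0.00036 after quantile normalization and −0.053 to 0.18 without 1 array. The log2 ratio of Itgal to Itgb2 changed by −0.055 when probe sets were averaged and by −0.049 to 0.089 without 1 array, and that of Itgav to Itgb3 by −0.16 to 0.48. With the replicate block, the ratio of Itga4 to Itgb7 changed by −0.76 (exact sign-flip test over 3 pairs, p = 0.25, the smallest possible). The cause of these shifts was not tested. Probe sets near the floor, which include the dim ones of Itga4, Itgb1 and Itgav, carry little signal over background.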
